A study of Homo sapiens with 6 samples.

Results

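The ABC transporter family was described here as the protein coding genes whose symbol starts with ABC, a subfamily letter from A to G and a digit. The rule found 45 of 58735 annotated genes, of which 12 belong to subfamily A, 9 to B, 11 to C, 4 to D, 1 to E, 3 to F and 5 to G. It does not take in TAP1, TAP2 and CFTR, which are ABC proteins with other names, nor 16 pseudogenes and noncoding RNAs named after ABC genes. RNA was sequenced from cells labelled CCRF-SB, a human B lymphoblast line, in 6 libraries, 3 per group. The siControl group had received an empty lentiviral vector, and the siANXA1 group a lentiviral vector that silences ANXA1, the gene of the phospholipid-binding protein annexin A1. Both groups were grown in RPMI-1640 with serum, and day 5 is the time given for both. Puromycin selection is described for the cells that carried the silencing vector. No gene of the family was targeted, and the title of the series names drug resistance, which is the question these genes bear on.

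ABC proteins hold a nucleotide-binding domain that hydrolyses ATP. In subfamilies A, B, C, D and G it is joined to membrane-spanning domains, and the protein moves lipids, peptides, heme, drugs or other substrates across a membrane. Full transporters carry both nucleotide-binding domains in 1 chain, those with a single such domain work as dimers, and the proteins of subfamilies E and F lack a membrane domain and act on the ribosome or in the cytosol. In leukemia the family is best known for drug efflux by ABCB1 (P-glycoprotein), ABCC1 and ABCG2. The Pfam entries of the deposited annotation held 2 ABC nucleotide-binding domains for ABCE1, ABCF1, ABCF2 and ABCF3 and 0 ABC membrane domains. They held 1 nucleotide-binding domain for ABCB6, ABCB8, ABCB9, ABCB10 and the D and G members.

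The start regions of 4 members are shown as examples of CG-poor and CG-rich promoters in the family. The most CG-rich window found, that of ABCA2, is not among them. Each is the run of 250 bases before a RefSeq transcription start (GRCh38.p14), read 5′ to 3′ on the gene's strand, with each CG dinucleotide in capitals. ABCF2 (chr7:151227206-151227455, minus strand, 26 CG) had the second highest level per length in the family. ABCC4 (chr13:95301452-95301701, minus strand, 42 CG) had the smallest p-value between the groups. ABCC2 (chr10:99782390-99782639, plus strand, 1 CG) stands for the genes near 0. ABCG2 (chr4:88158640-88158889, minus strand, 32 CG) had a CG-rich start and a level near 0.
ABCF2: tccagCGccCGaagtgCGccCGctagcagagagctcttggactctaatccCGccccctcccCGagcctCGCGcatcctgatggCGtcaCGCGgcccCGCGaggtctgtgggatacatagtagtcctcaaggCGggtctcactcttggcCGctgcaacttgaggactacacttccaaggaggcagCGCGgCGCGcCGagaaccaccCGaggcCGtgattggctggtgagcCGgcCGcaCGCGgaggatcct
ABCC4: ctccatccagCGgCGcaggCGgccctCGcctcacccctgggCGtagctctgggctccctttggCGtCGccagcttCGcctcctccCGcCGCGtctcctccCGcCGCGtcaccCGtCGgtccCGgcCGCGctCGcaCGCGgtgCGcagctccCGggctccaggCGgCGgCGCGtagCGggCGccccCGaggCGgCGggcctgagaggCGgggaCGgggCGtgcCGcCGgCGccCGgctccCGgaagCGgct
ABCC2: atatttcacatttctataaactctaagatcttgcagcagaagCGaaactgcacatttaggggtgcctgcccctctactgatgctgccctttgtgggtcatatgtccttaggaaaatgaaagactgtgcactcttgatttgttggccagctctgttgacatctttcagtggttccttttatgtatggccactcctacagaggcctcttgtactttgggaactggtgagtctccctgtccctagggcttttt
ABCG2: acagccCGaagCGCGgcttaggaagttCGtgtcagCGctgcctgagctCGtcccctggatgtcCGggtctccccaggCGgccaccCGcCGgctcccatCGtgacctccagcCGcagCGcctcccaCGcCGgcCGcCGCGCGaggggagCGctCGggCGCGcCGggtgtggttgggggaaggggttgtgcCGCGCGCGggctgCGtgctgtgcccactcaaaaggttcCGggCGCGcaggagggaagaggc

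Over the family, CG dinucleotides were counted in RefSeq windows of 300 bases, from 250 before to 50 after a start, taking each gene's most CG-rich window. Windows were matched for 35 of the 45 members. The 15 members with a mean of 10 TPM or more held 15 to 66 CG, with a median of 29. TPM is a level relative to transcript length and library total, and its mean was taken over the 6 libraries. ABCC1 and ABCA8, with means of 31.5 and 18.3 TPM, were among the members without a window. The 4 members between 1 and 10 TPM held 16 to 45 CG, with a median of 25. The 16 members under 1 TPM held 1 to 35 CG, with a median of 8. A count of 15 CG or more was found in 15 of 15, 4 of 4 and 5 of 16 members in these ranges, and in 52.0% of all 27305 genes with a window. The cut of 15 is the lowest count among the members of 10 TPM or more, so 15 of 15 follows from it. The share of all genes was not divided by level and gives no comparison at like levels. The 5 members with 15 or more CG and under 1 TPM were ABCC11 (28), ABCG2 (35), ABCC6 (29), ABCG4 (28) and ABCA1 (23). Windows of a gene can differ, as those of ABCC11 held 28, 2 and 1 CG and those of ABCB1 16 and 1. The relation is a description across genes, which are not independent replicates.

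**Figure D1:**
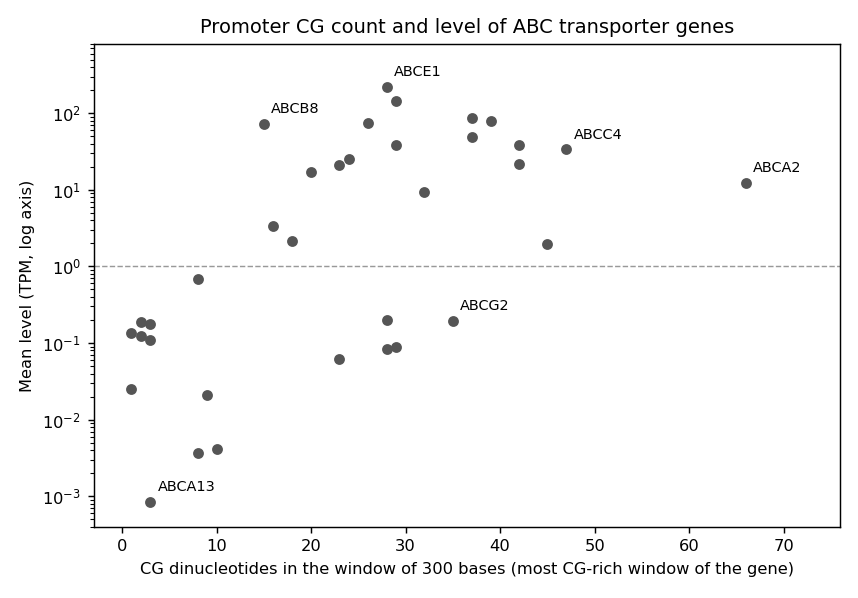
Each point is 1 of 35 ABC transporter genes, with the CG dinucleotides in its most CG-rich RefSeq start window of 300 bases on the horizontal axis and its mean TPM over 6 libraries on the vertical log axis; the dashed line marks 1 TPM. Every gene above the line has 15 or more CG, while genes below it range from 1 to 35.

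The libraries held between 21333951 and 44148505 estimated counts with a gene. CPM is the count relative to the scaled library total, and to the unscaled total where the genes of a list are summed. ANXA1 was at 3696, 3696 and 3756 CPM in siControl and at 1606, 1723 and 1712 CPM in siANXA1. All siANXA1 libraries lay below all siControl libraries, and 45.2% of the level remained. The log2 fold change was -1.14 ± 0.0932 (SE), with an adjusted p of 0.0571 in edgeR's quasi-likelihood test with Benjamini-Hochberg adjustment and a p of 0.1 in an exact permutation test, the smallest that 3 against 3 allows. Of 12 B cell markers, 3 had a mean of 1 CPM or more, CD24 and CD22 among them. VPREB1 and IGHM were at 0 counts, CD79A at 0.685 CPM or less and PAX5 at 0.23 CPM or less, so that defining markers of the labelled cell type were near 0. Of 16 erythroid and megakaryocyte markers, 14 reached 1 CPM, and none was at 0 in all libraries. Their summed level was 2240 to 3751 CPM in siControl and 6050 to 7072 CPM in siANXA1. Summed levels over the 6 libraries were 36.5 to 103 CPM for the 12 B cell markers and 565 to 785 CPM for 5 epithelial markers. They were 72.9 to 107 CPM for 11 myeloid and 10.9 to 39.6 CPM for 10 T and NK cell markers. The 7 fibroblast and endothelial markers summed to 5.64 to 27.1 CPM. The share of counts from mitochondrial ribosomal RNA was 1.15% to 2.15% in siControl and 0.787% to 1.09% in siANXA1. The first principal component, 39.9% of the variance, placed siControl 1, siControl 2 and siANXA1 2 apart from siControl 3, siANXA1 1 and siANXA1 3. A list of 10 amino acid stress genes summed to 4760, 4497 and 2944 CPM in the former and 618, 475 and 478 CPM in the latter. The part of these differences in the results below was not tested.

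The family as a whole summed to 901, 822 and 1267 TPM in the siControl libraries and to 1065, 1008 and 1147 TPM in the siANXA1 libraries, so the groups overlapped. A mean of 1 TPM or more was reached by 23 members (51.1%, against 57.4% of 19951 protein coding genes) and of 10 TPM or more by 18 (40%, against 40.3%). The 3 members of subfamily F made up 26.7% of the family's TPM and the single member of E 21.0%. Together these proteins without a membrane domain held 39.4% to 57.1% over the 6 libraries, with a mean of 47.7%. They held more than 50% in 3 libraries, siControl 3, siANXA1 1 and siANXA1 3. These 3 also had the highest family sums and lay together on the first principal component, whose part here was not tested. Subfamily B held 20.5%, C 15.6%, A 9.23%, D 6.92% and G 0.0321%. Of the 22 pairs of neighbours in the order of mean TPM among the 23 members, 0 had ranges over the 6 libraries that did not overlap, and in 6 pairs the gene with the higher mean was higher in all 6 libraries. The order below is therefore one of means.

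**Figure D2:**
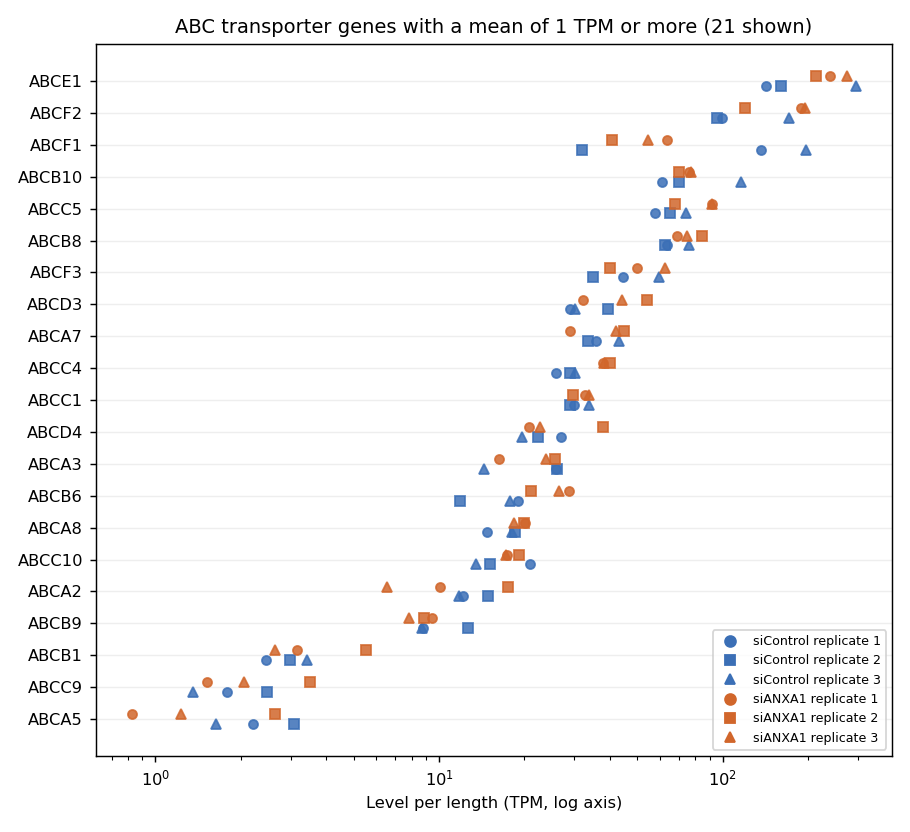
Levels per length (TPM, log axis) of 21 ABC transporter genes with a mean of 1 TPM or more, in order of the mean; each symbol is 1 library, blue for siControl and orange for siANXA1. ABCE1 and ABCF2 lead the order, and the libraries of each gene spread over the positions of its neighbours.

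Subfamilies E and F hold ABCE1 and ABCF1, which act on translation, and ABCF2 and ABCF3. ABCE1 (chr4:145097932-145129179), which splits ribosomes after termination, had the highest mean, 221 TPM, above 97.0% of protein coding genes. Its level was 287, 327 and 595 CPM in siControl and 495, 407 and 536 CPM in siANXA1. The siControl libraries spanned all 3 siANXA1 values. ABCF2 had a mean of 145 TPM, with 192, 187 and 325 CPM in siControl and 359, 225 and 357 CPM in siANXA1. Here siANXA1 2 lay below siControl 3, and the groups overlapped. ABCF1 (chr6:30571376-30597179), which binds the initiation factor eIF2, had a mean of 87.4 TPM. Its counts were the most uneven of these: 169, 54.0 and 328 CPM in siControl and 108, 54.5 and 91.5 CPM in siANXA1, a 6.08-fold range over the 6 libraries. Its lowest and its highest value were both siControl libraries. ABCF3 had a mean of 48.6 TPM, with 38.5, 30.6 and 54.5 CPM in siControl and 46.3, 33.6 and 55.8 CPM in siANXA1. The log2 fold changes, siANXA1 minus siControl, were 0.25 for ABCE1, 0.42 for ABCF2, -1.12 for ABCF1 and 0.13 for ABCF3, and each 95% interval included 0. Leaving out 1 library moved ABCF1 between -1.56, without siControl 2, and -0.41, without siControl 3. OTUD4, on the opposite strand over ABCE1, held 27.3% as many counts as ABCE1, and since no source used here gives the strand setting, reads of the 2 genes may not have been told apart.

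Subfamily B holds the mitochondrial transporters, a lysosomal peptide transporter and P-glycoprotein. ABCB10, of the mitochondrial inner membrane and needed for heme production, had a mean of 78.6 TPM. Its level was 132, 150 and 248 CPM in siControl and 168, 145 and 164 CPM in siANXA1, so that siControl 3 alone stood above the others. Its processed pseudogenes ABCB10P1, ABCB10P3 and ABCB10P4 held 3.66%, 16.3% and 21.2% of the 4 genes' summed CPM, and reads may be divided among these copies. The sum over the 4 genes, chosen after their counts were seen, was 269, 294 and 346 CPM in siControl and 254, 271 and 276 CPM in siANXA1. ABCB8, also mitochondrial, had a mean of 71.8 TPM, with 70.0, 63.4 and 78.3 CPM in siControl and 78.5, 82.9 and 77.4 CPM in siANXA1. Its groups overlapped, since siANXA1 3 lay below siControl 3. ABCB6, a porphyrin transporter, and ABCB9, the lysosomal peptide transporter, had means of 20.8 and 9.40 TPM. The log2 fold changes of ABCB6, ABCB8, ABCB9 and ABCB10 were 0.35, 0.17, -0.32 and -0.15. Same-strand AC068946.2, which spans nearly all of ABCB6, held 24.5% as many counts as ABCB6. OGFOD2 and ARL6IP4, on the opposite strand over ABCB9, each held more counts than ABCB9. AC026362.1, also on the opposite strand over ABCB9, held 80.0% as many.

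The known drug exporters differed widely in level. ABCC5, ABCC4, ABCC1 and ABCC10 had means of 74.7, 33.6, 31.5 and 17.2 TPM, ABCB1 3.36 TPM, and ABCG2 and ABCC2 0.193 and 0.136 TPM. ABCC4 (chr13:95019829-95301475), an exporter of cyclic nucleotides and nucleoside analogs, was at 76.5, 86.7 and 90.8 CPM in siControl and 116, 114 and 117 CPM in siANXA1. All 3 siANXA1 libraries lay above all siControl libraries. The fold was 1.36 (95% interval 1.09 to 1.72), a log2 fold change of 0.45 ± 0.138 (SE). The unadjusted p was 0.0154 and the adjusted p 0.605 in edgeR's quasi-likelihood test with Benjamini-Hochberg adjustment, so ABCC4 did not pass the threshold of an adjusted p under 0.05. Without siControl 1, siANXA1 1 or siANXA1 3 the unadjusted p was 0.0637, 0.0510 and 0.0535 in the same edgeR test.

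ABCC5 (chr3:183919934-184018015), a related exporter of cyclic nucleotides, was at 131, 144 and 175 CPM in siControl and 221, 141 and 216 CPM in siANXA1. Here siANXA1 2 lay within the siControl range. ABCC1, which exports glutathione conjugates and several anticancer drugs, was at 105, 101 and 117 CPM in siControl and 117, 100 and 122 CPM in siANXA1, and the groups overlapped. Its fold was 1.05, with a 95% interval of 0.818 to 1.34. ABCC10, which exports taxanes, was at 33.0, 26.3 and 31.5 CPM in siControl and 36.0, 30.4 and 31.5 CPM in siANXA1, with a fold of 1.08 and an interval of 0.799 to 1.46. ABCB1 (chr7:87503633-87713323) was at 4.71, 5.78 and 4.01 CPM in siControl and 5.43, 7.90 and 4.72 CPM in siANXA1. The groups overlapped, and the fold of 1.24 had an interval of 0.753 to 2.05. ABCG2 was at 0.239, 0.223 and 0.419 CPM in siControl and 1.15, 0.0913 and 0.573 CPM in siANXA1. The siANXA1 libraries held both its highest and its lowest value. Its fold of 2.12 rested on 106 counts in all and had an interval of 0.551 to 8.15. Without siANXA1 1 its log2 fold change was 0.24 in place of 1.08. ABCC2, an exporter of conjugates in liver, was at 0.622, 0.174 and 0.0898 CPM in siControl and 0.299, 0.457 and 0.682 CPM in siANXA1. Its fold of 1.59 rested on 84 counts in all and had an interval of 0.445 to 5.71. The log2 fold change of ABCC2 was 0.67, and 1.81 without siControl 1, its second highest library, with an unadjusted p of 0.0493 in edgeR. ABCC3, with 23 counts, and ABCC6, with 24, did not pass the filter on low counts.

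**Figure D3:**
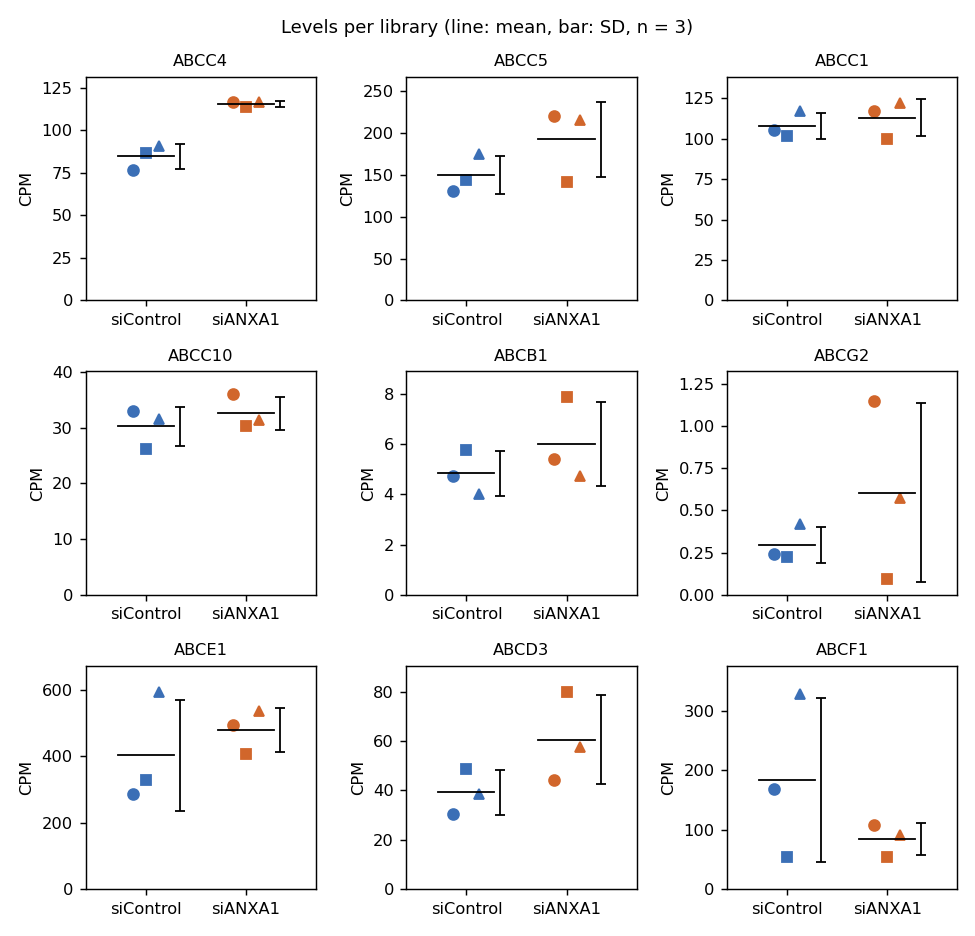
CPM of 9 ABC transporter genes in each library, circles for replicate 1, squares for replicate 2 and triangles for replicate 3, with the group mean as a line and the SD as a bar (n = 3). The siANXA1 values of ABCC4 lie above all siControl values, and the groups of the other 8 genes overlap.

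The remaining C members include the sulfonylurea receptors, the regulatory subunits of ATP-sensitive potassium channels. ABCC9 had a mean of 2.12 TPM and ABCC8 6 counts in all. ABCC11 and ABCC12, neighbours on chromosome 16, held 79 and 3 counts. The 6 tested members of subfamily C (ABCC1, ABCC2, ABCC4, ABCC5, ABCC9 and ABCC10) all had a log2 fold change above 0, from 0.07 to 0.67 with a median of 0.30. With the first principal component as a covariate ABCC1 turned to -0.028, and without siANXA1 2 ABCC9 turned to -0.14. Of all genes tested, 50.5% were above 0.

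Subfamily D works in peroxisomes, where ABCD2 and ABCD3 import fatty acids, and in lysosomes, where ABCD4 serves cobalamin export. ABCD3 (chr1:94418455-94518666), which imports branched-chain fatty acids and bile acid precursors, was at 30.4, 48.5 and 38.5 CPM in siControl and 44.1, 79.9 and 57.7 CPM in siANXA1. Here siANXA1 1 lay within the siControl range. The fold was 1.55 (interval 0.963 to 2.49), with an adjusted p of 0.641 in edgeR's quasi-likelihood test with Benjamini-Hochberg adjustment. ABCD4 and ABCD2 had means of 25.0 and 0.682 TPM and log2 fold changes of 0.05 and -0.36. The log2 fold changes of these 3 members did not point one way.

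Subfamily A moves lipids. ABCA7, a phospholipid transporter, had a mean of 38.1 TPM, with 76.4, 77.5 and 86.3 CPM in siControl and 41.5, 103 and 81.0 CPM in siANXA1. Its lowest and its highest values were both siANXA1 libraries. ABCA3, which loads lipids into lamellar bodies and is known for drug sequestration in leukemia cells, had a mean of 22.0 TPM. Its level was 84.1, 71.9 and 34.5 CPM in siControl and 45.1, 71.8 and 64.9 CPM in siANXA1. The pseudogene ABCA17P, on the opposite strand over 1597 bases of ABCA3, held 17.9% as many counts as ABCA3. ABCA2, an endolysosomal transporter linked to estramustine resistance, was at 28.5, 27.8 and 15.2 CPM in siControl and 15.5, 27.0 and 13.3 CPM in siANXA1. For ABCA2 and ABCA3, siControl 1, siControl 2 and siANXA1 2 held the 3 highest values. The first principal component set the same 3 libraries apart. These 3 libraries also held the 3 highest values of ABCA5, ABCB9, ABCC9, ABCD2 and ABCD4. They held the 3 lowest values of ABCE1, ABCF2, ABCF3, ABCB10, ABCC1 and ABCC5. The part of the first principal component in these values was not tested. The log2 fold changes of ABCA2, ABCA3 and ABCA7 were -0.36, -0.07 and -0.09.

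Of the 8 tested A members, 7 had a log2 fold change below 0 and ABCA8 one of 0.03, with a median of -0.39. ABCA8 turned to -0.028 under upper quartile scaling, -0.40 with coding transcripts only and -0.0077 without siControl 3. With the first principal component as a covariate ABCA1, ABCA2 and ABCA3 turned to 0.84, 0.017 and 0.36. ABCA1 was also above 0 with limma-voom, at 0.24, ABCA5 with coding transcripts only, at 1.12, ABCA7 without siANXA1 1, at 0.20, and ABCA3 with the replicate block, at 0.00383, and without siControl 1, siControl 2 or siANXA1 1, at 0.18, 0.019 and 0.11. ABCA1, the main exporter of cholesterol to apolipoprotein A-I, held 80 counts in all and 0 in siControl 3. ABCA6 and ABCA12 held 63 and 143 counts. ABCA8, ABCA9, ABCA6, ABCA10 and ABCA5 lie side by side on chromosome 17, and within that cluster ABCA8 had a mean of 18.3 TPM and ABCA5 1.94 TPM, against 0.190, 0.179 and 0.0250 TPM for ABCA6, ABCA10 and ABCA9. A like gap separated ABCC1 and ABCC6 on chromosome 16, which lie 5.85 kb apart, at 31.5 and 0.0888 TPM.

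Most of the other members were near 0. ABCB5 had 0 counts in every library, which allows up to 3 counts, or 0.0138 CPM, over the 6 libraries, for counting error only. The bile transporters ABCB4 and ABCB11 held 19 and 90 counts, and the sterol transporters ABCG5 and ABCG8 9 and 3. The sterol exporters ABCG1 and ABCG4 held 7 and 32 counts. ABCA4, the retinal transporter, held 24, and ABCA9, ABCA10 and ABCA13 6, 82 and 2.

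Between the groups, 30 of the 45 members passed the filter on low counts. An adjusted p under 0.05 in edgeR's quasi-likelihood test was reached by 0 of them, as by 0.0111% of the 17947 genes tested (2 genes). An unadjusted p under 0.05 in edgeR was reached by 1 of 30 members, ABCC4, as by 7.93% of all genes (3.4% higher and 4.52% lower in siANXA1). Groups that did not overlap were found for 2 of 30 members, against 14.6% of all genes. They were higher in siANXA1 for ABCC4 (1 of 30, against 7.41% of all genes) and lower for 1 member (against 7.24%). Among members under the filter, ABCC11, higher, and ABCG4, lower, also had groups that did not overlap, on 79 and 32 counts. For ABCC11 the nearest libraries held 10 counts in siControl 2 and 11 in siANXA1 1. For ABCG4, siControl 3 and siANXA1 3 held 4 counts each, so only the scaling set them apart. The share over all genes under the filter was not computed, and no difference is read from either gene. DESeq2 gave 0 members with an adjusted p under 0.05, against 1.07% of its genes, and 4 of the 44 members it gave a p with an unadjusted p under 0.05 (9.09%, 2 higher and 2 lower), ABCC4, ABCA4 and ABCC11 among them, against 5.53% of its genes. The share of members was thus below that of all genes in edgeR and above it in DESeq2, on counts of 1 and 4 genes. ABCA4 rested on 24 counts.

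The median log2 fold change of the 30 members was 0.06, against 0.01 over all genes tested, with 17 members above 0 and 13 below. A change of 1 or more on the log2 scale in either direction was fitted for 3 members (10.0%), ABCA6, ABCF1 and ABCG2, against 10.3% of all genes. Leaving out 1 library moved each of these by over 1.5 times. ABCA6 was at -0.63 without siANXA1 2 and -2.19 without siANXA1 3, ABCF1 at -0.41 without siControl 3, and ABCG2 at 0.24 without siANXA1 1. The median SD of log2 CPM within groups was 0.346 over the members and 0.335 over all genes, and the common biological coefficient of variation was 0.423. With that spread, the 95% intervals of the members outside ABCC4 all included 0 and many reached past a 1.5-fold difference, so the data do not show that these genes were at the same level in the groups.

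**Figure D4:**
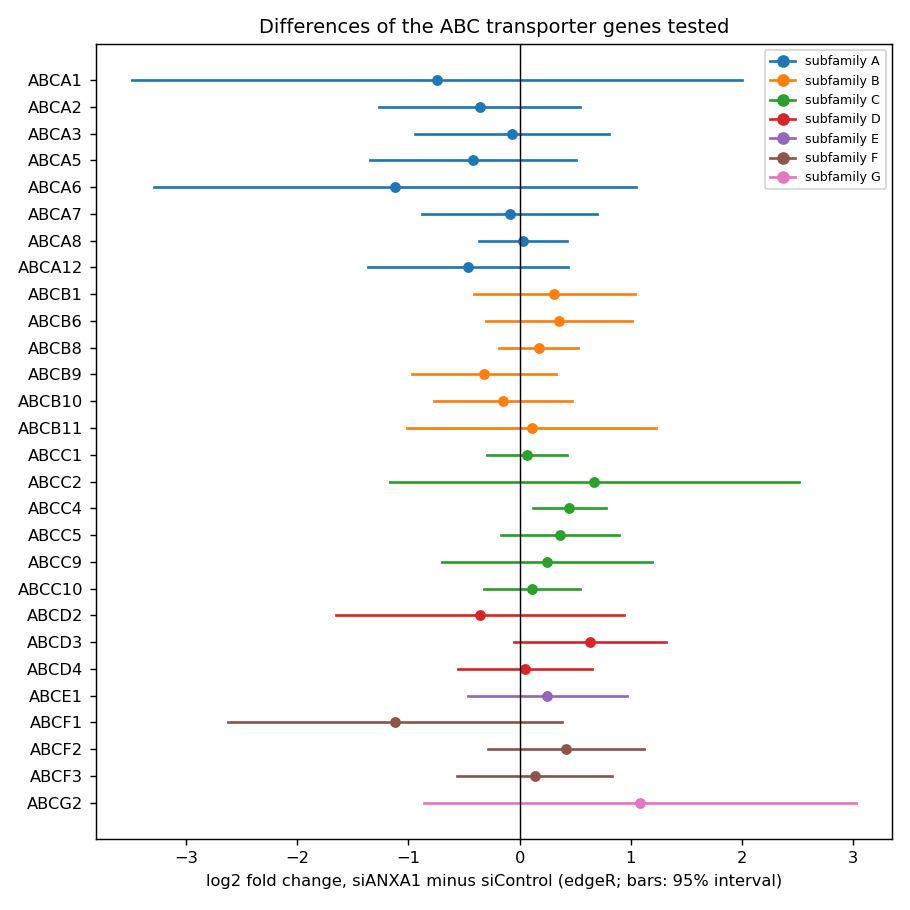
Log2 fold change, siANXA1 minus siControl, of 28 tested ABC transporter genes by subfamily (points, edgeR) with 95% intervals (bars). Of the genes shown, the interval of ABCC4 alone lies off 0, at 0.12 to 0.78 without adjustment for the number of genes, and those of ABCA1, ABCA6, ABCF1 and ABCG2 are among the wide ones.

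The summed count of a gene also holds transcripts that encode no full protein. Among the 23 members with 1 TPM or more, a median of 87.2% of counts lay in transcripts annotated as protein coding, against 94.8% over 11455 protein coding genes at that level. Under 50% was found for 6 members (26.1%), against 11.9% of those genes. These were ABCA2 with 4.55%, ABCD4 with 19.6%, ABCB6 with 37.6%, ABCA8 with 40.2%, ABCA5 with 44.8% and ABCC10 with 47.2%. For ABCA2 the leading transcript, ENST00000479446, is annotated as a target of nonsense-mediated decay, the pathway that degrades messages with an early stop. It held 22.1% to 54.3% of the gene's counts. For ABCB6 and ABCC10 the leading transcripts, ENST00000497882 and ENST00000463024, retain an intron.

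The coding share differed between the groups without overlap for 3 of 23 members, against 9.52% of 11371 genes. ABCD3 had 39.0%, 35.8% and 44.8% in siControl and 64.4%, 58.1% and 54.6% in siANXA1. Its coding transcript ENST00000370214 held 142, 303 and 338 counts in siControl and 920, 833 and 774 counts in siANXA1, although siANXA1 2 was the shallowest library. Summed over coding transcripts only, ABCD3 had a log2 fold change of 1.20, with an unadjusted p of 0.00487 and an adjusted p of 0.612 in edgeR's quasi-likelihood test. ABCA5 had a coding share of 22.3%, 18.4% and 46.6% in siControl and 84.5%, 68.1% and 78.2% in siANXA1. Its transcript ENST00000586995, a target of nonsense-mediated decay, held 132, 120 and 31 counts in siControl and 8, 0 and 8 in siANXA1. Its log2 fold change was -0.42 over all transcripts and 1.12 over coding transcripts only, the latter with an unadjusted p of 0.0200 and an adjusted p of 0.661 in edgeR. ABCA8 went the other way, with 59.4%, 37.1% and 38.5% in siControl and 37.0%, 26.7% and 36.4% in siANXA1. These shares are estimates that divide reads among overlapping transcripts, and this comparison was chosen after the shares were seen.

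How uneven that division can be is shown by ABCC4. Its coding transcripts ENST00000376887 and ENST00000645237, of 5841 and 5856 bases, changed places between libraries. The first held 373, 645 and 2549 counts in siControl and 4622, 182 and 1948 in siANXA1. The second held 2497, 1488 and 223 counts in siControl and 1, 2060 and 2013 in siANXA1. A further transcript, ENST00000643842, annotated as a target of nonsense-mediated decay, held 0, 1049 and 0 counts in siControl and 18, 7 and 5 in siANXA1. The order of the 2 coding transcripts changed within each group, while the gene's CPM, given above, differed little within a group.

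**Figure D5:**
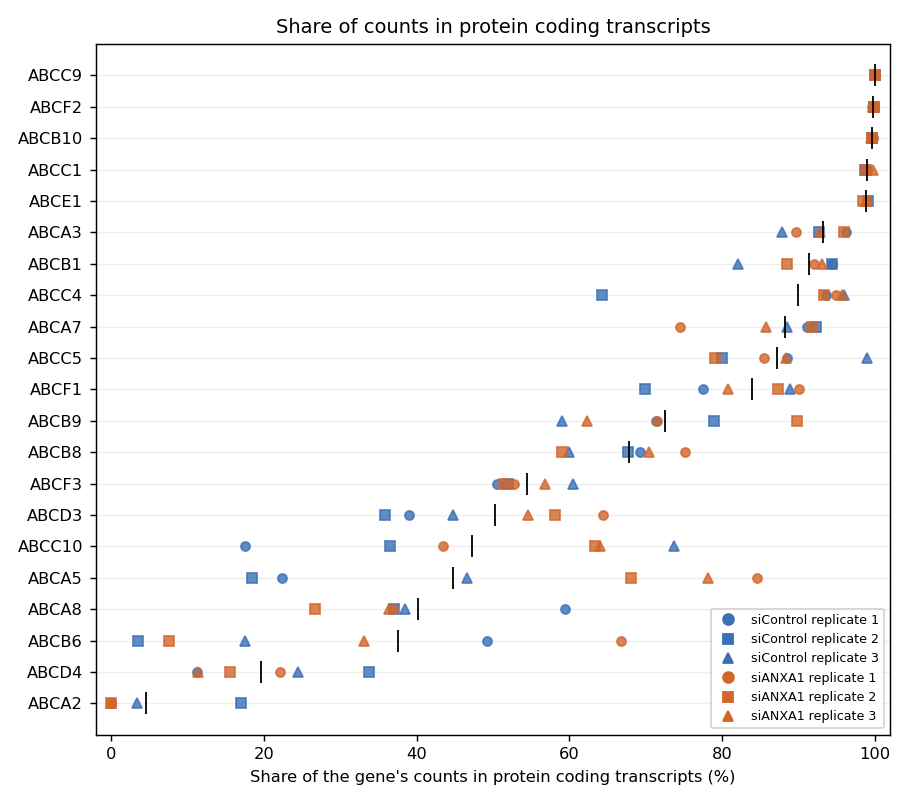
Share of each gene's counts in protein coding transcripts (%, horizontal axis) for 21 ABC transporter genes with a mean of 1 TPM or more, 1 symbol per library, blue for siControl and orange for siANXA1; the black tick is the share over all 6 libraries. ABCA5 and ABCD3 have higher shares in all siANXA1 libraries, and ABCA2 lies at the low end with 4.55% over all libraries.

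The genes that work beside the family were followed in 9 lists, and 0 genes of any list passed an adjusted p under 0.05 in edgeR's quasi-likelihood test. Over all genes tested the median log2 fold change was 0.01, and an unadjusted p under 0.05 in edgeR was reached by 3.4% as higher and 4.52% as lower. Of 23 genes of mitochondrial iron-sulfur cluster assembly and heme synthesis, the setting of ABCB10, 18 had a log2 fold change above 0, with a median of 0.08. At an unadjusted p under 0.05 in edgeR, 4 were higher (17.4%, against 3.4% of all genes) and 2 lower (8.70%, against 4.52%). DESeq2 called 1 gene of this list at an adjusted p under 0.05, the mitochondrial iron importer SLC25A28, named after its values were seen. SLC25A28 was at 4.88, 3.37 and 3.38 CPM in siControl and 9.98, 8.54 and 10.9 CPM in siANXA1, with an adjusted p of 0.574 in edgeR and 0.00382 in DESeq2. The mitochondrial chaperone HSPA9 was at 1172 ± 114 and 949.6 ± 59.6 CPM in siControl and siANXA1, and the heme synthesis enzyme UROD at 362 ± 65.7 and 373 ± 37.4 CPM (SD, n = 3). The summed level of erythroid markers given above was higher in siANXA1, and its part in these values was not tested.

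Of 14 tested genes of cholesterol and phospholipid efflux, which include the regulators of ABCA1 and ABCG1, 5 were above 0 and 9 below, with a median of -0.18 and 2 lower (14.3%, against 4.52%) at an unadjusted p under 0.05 in edgeR. The sterol-binding protein OSBP was at 191 ± 8.44 and 195 ± 3.49 CPM, and the lipoprotein receptor SCARB1 at 183 ± 8.47 and 192 ± 19.6 CPM in siControl and siANXA1. This list too held 1 gene with an adjusted p under 0.05 in DESeq2, RXRB, a nuclear receptor partner of the sterol sensors, named after its values were seen. RXRB was at 24.1, 30.9 and 22.0 CPM in siControl and 6.30, 10.1 and 7.56 CPM in siANXA1. Its adjusted p was 0.409 in edgeR and 2.43e-05 in DESeq2.

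Of 27 tested regulators of multidrug efflux and drug handling, 18 were above 0 and 9 below, with a median of 0.09 and 1 lower (3.70%, against 4.52%) at an unadjusted p under 0.05 in edgeR. YBX1, a regulator of ABCB1 transcription, was at 1488 ± 86.4 and 1563 ± 162 CPM, and MSN, a membrane anchor of P-glycoprotein, at 1315 ± 56.2 and 1159 ± 59.7 CPM in siControl and siANXA1. Of 14 genes of peroxisomal import and beta oxidation, the setting of ABCD2 and ABCD3, 9 were above 0 and 5 below, with a median of 0.06 and 1 higher (7.14%, against 3.4%) at an unadjusted p under 0.05 in edgeR. The fatty acid elongase ELOVL5 was at 433 ± 39.1 and 428 ± 36.9 CPM, and the acyl-CoA synthetase ACSL3 at 234 ± 73.0 and 192 ± 31.0 CPM. Of 7 genes of lysosomal cobalamin export and use, 4 were above 0 and 3 below, with 1 higher (14.3%, against 3.4%) and 1 lower (14.3%, against 4.52%) at an unadjusted p under 0.05 in edgeR. MMADHC, a cobalamin trafficking protein, was at 291 ± 72.7 and 342 ± 20.2 CPM, and methionine synthase, MTR, at 151 ± 24.7 and 83.8 ± 36.0 CPM.

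Of 19 genes of ribosome recycling and initiation, which work with ABCE1 and ABCF1, 12 were above 0 and 7 below, with a median of 0.13 and 1 lower (5.26%, against 4.52%) at an unadjusted p under 0.05 in edgeR. The initiation factors EIF2S3 and EIF1 were at 857 ± 41.7 and 714 ± 261 CPM in siControl and at 737 ± 5.30 and 425 ± 71.7 CPM in siANXA1. For peptide loading onto MHC class I, 10 genes were tested, 4 above 0 and 6 below, with 1 higher (10%, against 3.4%) and 1 lower (10%, against 4.52%) at an unadjusted p under 0.05 in edgeR. The chaperones CALR and CANX were at 1700.2 ± 527 and 1912 ± 252.5 CPM in siControl and at 2760.2 ± 320.0 and 2133 ± 232 CPM in siANXA1. The peptide transporters TAP1 and TAP2 themselves were at 4.16 ± 2.40 and 81.8 ± 4.42 CPM in siControl and 2.86 ± 0.732 and 76.2 ± 3.93 CPM in siANXA1. The channel genes KCNJ8 and KCNJ11, the partners of ABCC9 and ABCC8, were at 7.47 ± 3.84 and 1.72 ± 0.166 CPM in siControl and 9.59 ± 2.81 and 1.86 ± 1.20 CPM in siANXA1. Of 8 tested genes of sphingolipid and lysophospholipid transport, 7 were above 0, with a median of 0.53 and 1 higher (12.5%, against 3.4%) at an unadjusted p under 0.05 in edgeR. All matched genes of the list summed to 154, 156 and 316 CPM in siControl and 317, 255 and 319 CPM in siANXA1, so that siControl 3 lay at the siANXA1 level and siANXA1 2 below it, as on the first principal component, whose part in these values was not tested. UGCG, which makes glucosylceramide, was at 65.1 ± 29.3 and 101 ± 17.1 CPM, and the ceramide transfer protein gene COL4A3BP at 55.8 ± 25.7 and 83.4 ± 14.4 CPM in siControl and siANXA1.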

How the data were processed

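RNA was sequenced from 6 libraries, 3 siControl and 3 siANXA1, grouped by their titles. The authors deposited estimated counts per transcript as whole numbers, without normalization, and transcript lengths in bases, per the file headers. Per the labels' protocols, libraries came from total RNA by an Illumina TruSeq kit. No aligner, counter or strand setting is named in the sources used here. Per the submitters' processing notes the build was mm10, of mouse, but the annotation of all 45 members matched human GENCODE 29 on GRCh38, the build of the gene coordinates above. Counts were summed per gene, and 16014 rows without a gene, 16.9% to 17.7% of each library's counts, stayed out.

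The test across genes was that of edgeR 4.0.16 (R 4.3.3, filterByExpr, TMM scaling, robust quasi-likelihood fit, group as the only term, two-sided), with Benjamini-Hochberg adjustment over 17947 genes and a threshold of 0.05. DESeq2 1.42.0 and limma 3.58.1 were alternatives. The code was tested on simulated data. CPM values of genes, and of ABCB10 with its pseudogenes, are scaled by TMM. CPM summed over a marker or gene list is relative to the unscaled total. TPM values were computed from the counts and deposited lengths, without the rows lacking a gene. Whether replicates came from separate cultures is not stated, and the p-values therefore reflect only how these libraries vary, which may be technical. No 2 libraries of a group agreed within sampling noise (chi-square per gene 87.5 to 238). In bulk RNA, fewer cells of a type and less RNA per cell cannot be told apart. Members and lists were chosen with earlier results of these data known. Per-library values were given for the 12 members with the highest mean TPM, for members with an unadjusted p under 0.05 or groups that did not overlap at 1 CPM or more, and for tested drug transporters. Of 2 members and 1 marker gene no value is reported here. Each list is represented by its 2 most abundant tested genes.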

Additional observations from a re-analysis of the deposited data

How the results depend on the processing

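The number of ABC transporter genes past the threshold was 0 in each of the 16 alternatives. With coding transcripts only, 23 members with 1 TPM or more became 21. ABCA2, ABCA8, ABCB6, ABCC10 and ABCD4 then fell from above 10 TPM to 0.245, 4.49, 6.01, 7.19 and 5.10 TPM. Of these, all but ABCA8 were in the CG group of 10 TPM or more, which rests on all transcripts. The share of all protein coding genes at 10 TPM was not computed with coding transcripts only. Over all genes, 2 calls became 162 with DESeq2 (72 higher, 90 lower), 5 with the rows lacking a gene tested too, 5 with the first principal component as a covariate, 0 with coding transcripts only, and 0 to 7 when 1 library was left out, 7 being without siControl 3. With the replicate number as a block the count was 0. The numbers were not taken to pair the samples, since same-numbered libraries correlated at -0.11, 0.26 and 0.26 in their deviations from the group means, and siControl 1 correlated best with siANXA1 2. The block gave ANXA1 an adjusted p of 0.335 in edgeR and ABCA3 a log2 fold change of 0.00383.

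ANXA1 passed the threshold with a stricter filter (log2 fold change -1.15, adjusted p 0.0436, edgeR), DESeq2 (-1.15, 2.54e-07), limma-voom (-1.15, 0.0197), the rows lacking a gene tested too (-1.17, 0.0477 in edgeR) and the first principal component (-1.14, 0.0192 in edgeR). With 1 library left out it ranged from -1.16 to -1.11 and passed without siControl 3 only (adjusted p 0.0487, edgeR).

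Of 441 log2 fold changes of 28 members under the alternatives, 26 had the opposite sign to the reported value, in 13 members. With the first principal component ABCA1 was at 0.84, ABCA2 at 0.017, ABCA3 at 0.36, ABCC1 at -0.028, ABCD2 at 0.24 and ABCF3 at -0.13. ABCA1 was at 0.24 with limma-voom. With coding transcripts only ABCA5 was at 1.12, ABCA8 at -0.40 and ABCD4 at -0.41, and under upper quartile scaling ABCA8 was at -0.028 and ABCD4 at -0.015. With 1 library left out the values ran from -0.37 to 0.18 for ABCA3, -0.38 to 0.20 for ABCA7, -0.0077 to 0.076 for ABCA8, -0.33 to 0.17 for ABCB10, -0.19 to 0.34 for ABCB11, -0.14 to 0.45 for ABCC9, -0.16 to 0.18 for ABCD4 and -0.049 to 0.38 for ABCF3. The median over members, 0.06, was -0.11 without siANXA1 2. The number of members at an unadjusted p under 0.05 was 0 without siANXA1 3 and 6 without siControl 3. ABCB10 summed with its pseudogenes, an alternative chosen after seeing the data, was at -0.18. The causes of these shifts were not tested. TPM with the rows lacking a gene was not run, since those rows were used without lengths. Low counts limit ABCA1, ABCA6, ABCC2 and ABCG2.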
